A study of Mus musculus with 11 samples.

Results

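The transcripts described here belong to gene families that handle RNA: splicing factors, hnRNP proteins, mRNA 3′ end factors, ribosome assembly factors, RNA decay factors, translation initiation factors and ribosomal proteins. They were chosen by name from the deposited table of significant genes, by 27 family prefixes such as Rbm, Srsf, Hnrn, Ddx, Nop, Utp, Eif and Mrp. Pseudogene names, the genes Syncrip and Rbbp6, and genes that also stand in the gliosis, cytokine, motility or MAPK tables were left out. This gave 68 transcripts of 60 genes, out of 2071 transcripts of 1829 genes in the table, and 24 of the 27 prefixes had at least 1 of them. For differential expression the paper's methods required an adjusted p-value under 0.05 in addition to the fold limit. The table holds no transcript with a change smaller than 1.5-fold between the groups. The members were thus selected on the same contrast that is described below, and their directions and folds are a description with no new test. Just inside the limit were Prpf4b-201, Sf3a1-003 and Hnrnpd-006, each at about 1.5-fold, and nothing just outside it is listed.

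Cultured enteric glia of the mouse (msEGCs) were compared with and without extracellular ATP, which acts on purinergic receptors of glia and is released from damaged cells. Enteric glia are the supporting cells of the nervous system of the gut wall. The ATP group had 6 libraries of cultures kept for 6 h in 100 µM ATP, and the Control group had 5 libraries of cultures without it. Both groups were cultures of adult C57BL/6 (BL6) mice, grown from the muscle layer of the small bowel through neurospheres and then differentiated, and no source states whether libraries share animals. The treatment field of the labels names ATP for all 11 libraries, so the groups come from the library titles.

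The RNA was read as QuantSeq 3′ mRNA-Seq, which sequences only the end of a polyadenylated transcript. A value therefore belongs to the transcript name that the authors assigned, and isoforms that share a 3′ end cannot be told apart. For each transcript the table gives the authors' mean of the ATP libraries, their mean of the Control libraries and a total over all libraries. These tables hold no values per library, so no standard deviation, left-out library, depth per library or new test of a difference can be given. The authors' own p-values and adjusted p-values are in the tables but were not used. Whether a difference exceeds the spread between cultures was therefore not assessed here. The means are in arbitrary units of a depth-scaled signal, and below "signal" stands for these units. The codes in the library titles fall into 3 series, of which 1060 holds 3 ATP libraries, 1071 holds 2 Control libraries and 1073 holds 3 of each group, so that code series and treatment cannot be told apart for the first 2.

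Before a messenger RNA is translated, its introns are removed by the spliceosome, its 3′ end is cut and polyadenylated, and faulty transcripts are degraded by the exosome and by nonsense-mediated decay. SR proteins and hnRNP proteins bind the precursor and steer which exons are kept. Ribosomes are assembled in the nucleolus, where small nucleolar RNAs (snoRNAs) guide the modification of ribosomal RNA and a large set of helicases and processome proteins matures the subunits. Initiation factors then bring mRNA and ribosome together, and much of the control over protein synthesis acts at this step.

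Of the 68 transcripts, 57 were higher after ATP and 11 were lower. Among all 2071 listed transcripts, 47.8% were higher. A ratio of 2 or more was found for 21 of the 68 (30.9%), against 20.4% of all listed transcripts, and a ratio of 1/2 or less for 3 of the 68 (4.41%), against 32.9% of all listed transcripts. The median log2 ratio of ATP over Control was 0.82 for the members and −0.64 for all listed transcripts. Since the rule used this contrast, nothing is read from these shares beyond the counts. The folds were mostly small, with a median size of 1.88-fold and a range of 1.5-fold to 10.9-fold. The 19 members with a total under 100 signal units were split 13 higher and 6 lower, and the 49 members with larger totals 44 higher and 5 lower. The latter is 89.8% higher, against 53.8% of the 1183 listed transcripts with larger totals. The share among all listed transcripts with smaller totals was not computed, so nothing is read from the split of the 19. The counts past 2-fold depend on scale and depth: with the ratios multiplied by 1.16, the factor between unscaled and scaled values, 36 members were at least 2-fold higher (52.9%, against 32.5% of all listed transcripts) and 1 was at a ratio of 1/2 or less (1.47%, against 24.6%). Among the 49 members with larger totals, 10 were at least 2-fold higher (20.4%), a share near the 16.2% of the 1183 listed transcripts with such totals.

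**Figure D1:**
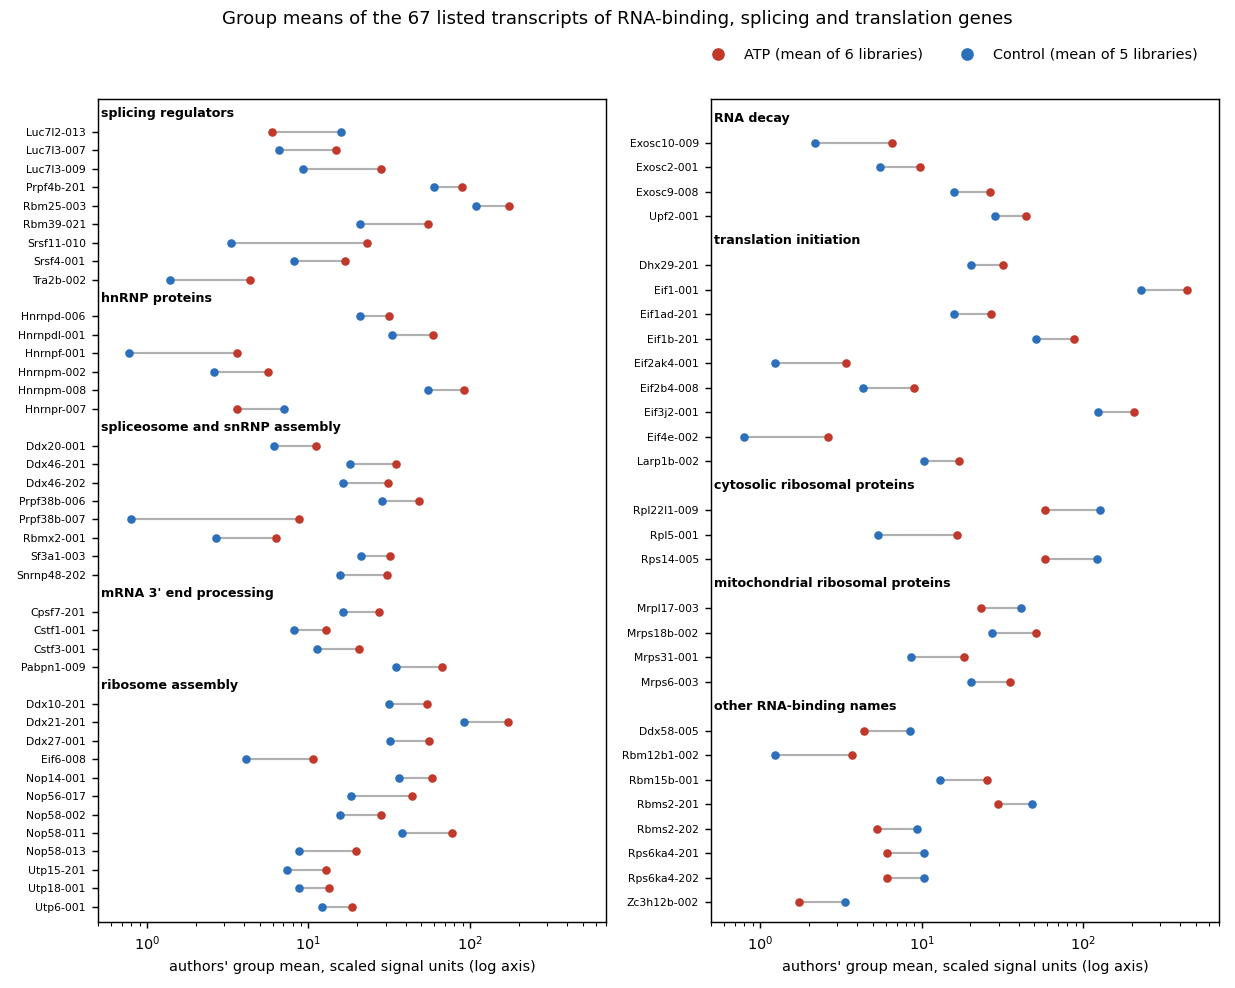
Group means of 67 of the 68 transcripts, grouped by role, on a log axis in arbitrary units of scaled signal, with the mean of 6 ATP libraries in red and that of 5 Control libraries in blue (authors' means, with no error available). In 56 rows the red point lies to the right of the blue one, and the 11 rows with the reverse order include Luc7l2-013, Rpl22l1-009 and Rps14-005.

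Of the splicing regulators, 8 of 9 transcripts were higher after ATP, and 6 of these were at least 2-fold higher. Their median log2 ratio, 1.18, was the largest of the 10 role classes. These classes were chosen with earlier results of these data known, so directions and medians by class are a description only. Srsf11-010, of an SR protein, had a mean of 22.9 in ATP cultures and 3.30 in Control cultures, a ratio of 6.95. Tra2b-002, of an SR-like activator of exon inclusion, had 4.33 in ATP cultures and 1.38 in Control cultures, a ratio of 3.14 that rests on a total of only 32.9. Luc7l3 is a homologue of a yeast component of the U1 snRNP, the particle that recognises the 5′ splice site, and both of its listed transcripts were higher. Luc7l3-009 had 28.3 in ATP cultures against 9.21 in Control cultures, and Luc7l3-007 had 14.8 in ATP cultures against 6.53 in Control cultures.

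Rbm39-021, of an SR-like factor related to the U2AF proteins, had a mean of 54.8 in ATP cultures and 21 in Control cultures, a ratio of 2.61. The second SR protein, Srsf4-001, had 17.0 in ATP cultures and 8.18 in Control cultures. The transcript with the largest total of the class, 1601, was Rbm25-003, of a regulator of alternative splicing, at 176 in ATP cultures and 109 in Control cultures, a ratio of 1.61. Prpf4b-201, of a kinase of spliceosome proteins, stood at the edge of the table with 89.5 in ATP cultures and 59.7 in Control cultures. Luc7l2-013 was the member with the lowest ratio of all 68, with 5.96 in ATP cultures and 15.9 in Control cultures, a ratio of 0.374, so the 2 Luc7-like genes were listed in opposite directions.

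Of the hnRNP proteins, 5 of 6 transcripts were higher after ATP. Hnrnpf-001, of a protein that binds runs of G in RNA, had the largest ratio of the class, 4.65, but its means were near the bottom of the table, 3.62 in ATP cultures and 0.778 in Control cultures, and after adding a pseudocount of 1 to each mean the ratio was 2.60. Hnrnpm was listed with a pair of transcripts that differ widely in level. Hnrnpm-008 had 92.2 in ATP cultures and 54.9 in Control cultures, and Hnrnpm-002 had 5.59 in ATP cultures and 2.61 in Control cultures. Hnrnpdl-001 had 59.4 in ATP cultures against 33.1 in Control cultures. Hnrnpd-006, of AUF1, a protein known to bind AU-rich elements in mRNA, had 31.5 in ATP cultures against 21 in Control cultures. The exception was Hnrnpr-007, with 3.60 in ATP cultures and 7.04 in Control cultures, a ratio of 0.512.

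All 8 transcripts of spliceosome components and snRNP assembly were higher after ATP. Prpf38b, a pre-mRNA processing factor, was listed with very unequal transcripts. Prpf38b-007 had the highest ratio of all members, 10.9, from a mean of 8.70 in ATP cultures and 0.796 in Control cultures, and with a pseudocount of 1 it was 5.40. Prpf38b-006 carried most of the signal of the listed pair, 48.1 in ATP cultures and 28.4 in Control cultures, at a ratio of 1.69. Summed, the listed pair had 56.8 in ATP cultures and 29.2 in Control cultures, a ratio of 1.94. The gene has 8 annotated transcripts, and those without a row are not in this sum.

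Ddx46, the mammalian Prp5 helicase that helps the U2 snRNP to engage the branch point, was listed under a pair of transcript names. Ddx46-201 had 34.6 in ATP cultures and 18.1 in Control cultures, and Ddx46-202 had 31.3 in ATP cultures and 16.3 in Control cultures. Their ratios, 1.91 each, were practically the same. Rbmx2-001, whose product associates with the U2 snRNP, had 6.27 in ATP cultures and 2.67 in Control cultures. Snrnp48-202, of a protein of the minor spliceosome, had 30.9 in ATP cultures and 15.6 in Control cultures, a ratio of 1.97. Ddx20-001 (Gemin3, part of the SMN complex that assembles snRNPs) and Sf3a1-003 (part of the U2 snRNP) had ratios of 1.82 and 1.5.

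The 4 transcripts of mRNA 3′ end factors were all higher after ATP, by 1.56-fold to 1.94-fold. Pabpn1-009, of the nuclear poly(A)-binding protein that sets the length of new poly(A) tails, had 67.4 in ATP cultures and 34.7 in Control cultures. Cstf3-001, of the 77 kDa subunit of the cleavage stimulation factor, had 20.6 in ATP cultures and 11.4 in Control cultures. Cpsf7-201, of a subunit of cleavage factor I that takes part in the choice of poly(A) sites, had 27.4 in ATP cultures against 16.5 in Control cultures. A library made from 3′ ends depends on where transcripts are cut, so a change of poly(A) site and a change of level cannot be told apart in these values.

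Ribosome assembly was the largest class, and all 12 of its transcripts, from 10 genes, were higher after ATP, by 1.53-fold to 2.60-fold. Nop56 and Nop58 form the core of the box C/D snoRNPs, which guide the 2′-O-methylation of ribosomal RNA. Nop56-017 had 43.7 in ATP cultures and 18.4 in Control cultures, a ratio of 2.37. Nop58 was the only member gene with 3 listed transcripts, and all were higher. Nop58-011 had 77.9 in ATP cultures and 37.9 in Control cultures, Nop58-002 had 28.0 in ATP cultures and 15.7 in Control cultures, and Nop58-013 had 19.6 in ATP cultures and 8.69 in Control cultures. Summed, these listed transcripts had 126 in ATP cultures and 62.3 in Control cultures, a ratio of 2.02, which leaves out transcripts of Nop58 without a row.

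The nucleolar helicase Ddx21-201 had the largest total of the class, 1489, with means of 172 in ATP cultures and 91.3 in Control cultures and a ratio of 1.88. The other helicases of this class were listed at 1.76-fold (Ddx27-001) and 1.70-fold (Ddx10-201). Components of the small subunit processome, the large particle on which the small ribosomal subunit is built, had ratios between 1.53 and 1.74. Nop14-001 had 58.0 in ATP cultures and 36.2 in Control cultures, and Utp15-201 had 12.9 in ATP cultures and 7.40 in Control cultures. Utp6-001 had 18.6 in ATP cultures and 12.2 in Control cultures, and Utp18-001 had 13.4 in ATP cultures and 8.73 in Control cultures. Eif6-008 had the largest ratio of the class, 2.60, with 10.6 in ATP cultures and 4.08 in Control cultures. Despite its name, eIF6 keeps the large subunit from joining the small one too early and is needed to make that subunit, so it is placed here.

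The 4 transcripts of the RNA decay class, of exosome and nonsense-mediated decay factors, were also all higher. Zc3h12b-002, of the regnase family of nucleases, was lower, at a ratio of 0.515, and is placed with the remaining names below. Exosc10-009, of the nuclease of the nuclear exosome, had 6.55 in ATP cultures and 2.19 in Control cultures, a ratio of 2.99. Of the subunits of the exosome core, Exosc2-001 had 9.72 in ATP cultures and 5.50 in Control cultures, and Exosc9-008 had 26.6 in ATP cultures and 16 in Control cultures. Their ratios, 1.77 and 1.67, were close to each other. Upf2-001, of a factor of nonsense-mediated decay, had the largest total of the class, 409, with 44.5 in ATP cultures and 28.4 in Control cultures.

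All 9 transcripts of the initiation class, each from a gene of its own, were higher after ATP, at a median ratio of 1.71. Eif1-001, of the factor that governs start codon selection, had the largest total of all members, 3777, with 439 in ATP cultures and 229 in Control cultures and a ratio of 1.92. Its paralog Eif1b-201 had 87.6 in ATP cultures and 51.4 in Control cultures, and reads that fit both genes could have been split between them. Eif4e-002, of the protein that binds the mRNA cap, had 2.64 in ATP cultures and 0.799 in Control cultures. It had the smallest total of all members, 19.9, and its ratio of 3.31 was 2.03 with a pseudocount of 1.

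The remaining transcripts of the initiation class include those of factors that act at other steps. Eif2b4-008 encodes the delta subunit of eIF2B, the exchange factor that recharges eIF2 with GTP, and had 8.93 in ATP cultures and 4.32 in Control cultures. Eif2ak4-001 encodes GCN2, a kinase that phosphorylates eIF2 under amino acid shortage, and had 3.40 in ATP cultures and 1.24 in Control cultures. Eif3j2-001 had 208 in ATP cultures and 123 in Control cultures. It is nearly identical to Eif3j1, so its signal cannot be assigned to 1 of the copies with certainty. Dhx29-201, of a helicase that helps scanning through structured leaders, had a ratio of 1.57. Larp1b-002 and Eif1ad-201, placed here by family name with no step of initiation assigned, had ratios of 1.66 and 1.70.

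Ribosomal proteins, in contrast to the assembly factors, were listed in both directions. Of the 3 member transcripts of cytosolic ribosomal proteins, Rpl22l1-009 had 58.4 in ATP cultures and 128 in Control cultures, a ratio of 0.455. Rps14-005 had 58.6 in ATP cultures and 122 in Control cultures, a ratio of 0.481. Together with Luc7l2-013 these were the 3 members at a ratio of 1/2 or less. Rpl5-001, of a large subunit protein that binds 5S ribosomal RNA, had 16.6 in ATP cultures and 5.40 in Control cultures, a ratio of 3.07. Rps16-001, which is listed but no member, was 2.36-fold higher in ATP cultures than in Control cultures. Ribosomal protein genes have many processed pseudogenes, and reads may have been shared with these copies.

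Of the 5 mitochondrial ribosomal protein transcripts, 4 were higher after ATP. Mrps31-001 had 18.4 in ATP cultures and 8.65 in Control cultures, a ratio of 2.12. Mrps18b-002 had the largest total of the class, 443, with 51.0 in ATP cultures and 27.3 in Control cultures. Mrps6-003 had 35.1 in ATP cultures and 20.4 in Control cultures, a ratio of 1.72. Mrpl17-003 was lower, with 23.3 in ATP cultures and 41.1 in Control cultures, a ratio of 0.567.

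The remaining 8 transcripts carry a family prefix but were placed in none of the classes above. Of these, 6 were lower after ATP, against 5 of the 60 transcripts in the other classes. The 6 include 2 rows each of Rps6ka4 and Rbms2. The classes were chosen with earlier results of these data known, so nothing is read from this contrast. Rps6ka4 is MSK2, a protein kinase activated by the p38 and ERK MAPK pathways, and shares the prefix Rps only because the kinase family was named after its ribosomal substrate. Its rows Rps6ka4-201 and Rps6ka4-202 hold identical values, 6.09 in ATP cultures and 10.4 in Control cultures, so they are not separate measurements, although both rows are included in the counts given here. Rbms2, a single-strand RNA-binding protein, had 29.9 in ATP cultures and 48.1 in Control cultures as Rbms2-201, and 5.33 in ATP cultures and 9.37 in Control cultures as Rbms2-202. These pairs were thus lower in ATP cultures by a similar fold, 1.61 and 1.76. Ddx58-005 (RIG-I, the sensor of viral RNA) had 4.37 in ATP cultures and 8.49 in Control cultures. Zc3h12b-002, of a member of the regnase family of nucleases, had 1.73 in ATP cultures and 3.37 in Control cultures. The higher ones were Rbm15b-001, of a cofactor of the complex that methylates adenosine in mRNA, with 25.3 in ATP cultures and 13.1 in Control cultures, and Rbm12b1-002, with 3.69 in ATP cultures and 1.25 in Control cultures.

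**Figure D2:**
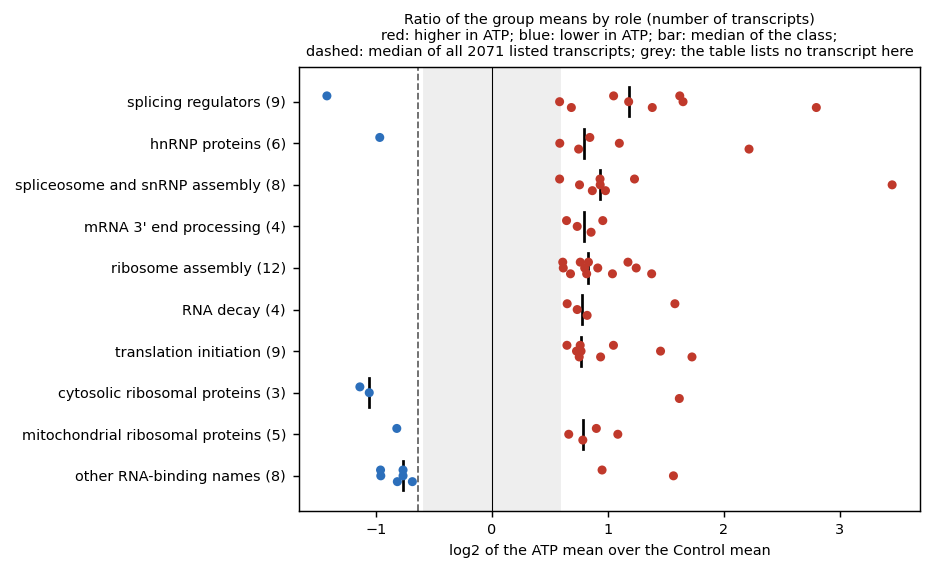
log2 of the ATP mean over the Control mean for each member transcript, by role, with the number of transcripts in parentheses, the class median as a bar and the median of all 2071 listed transcripts (−0.64) as a dashed line. The grey band is the range in which the table lists nothing, and the assembly, decay, 3′ end, spliceosome and initiation classes lie wholly to its right.

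In all, 7 of the 60 genes had more than 1 listed transcript, 15 transcripts together, and within each of these genes the transcripts went the same way. For Rps6ka4 this was fixed, since its rows are identical. Syncrip, with transcripts in both directions, was left out by the rule. The share of such genes in the whole table was not computed, so nothing is read from this count. The larger fold exceeded the smaller one by at most 1.36 times in 6 of these 7 genes, Rps6ka4 included. In Prpf38b it did so by 6.47 times.

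**Figure D3:**
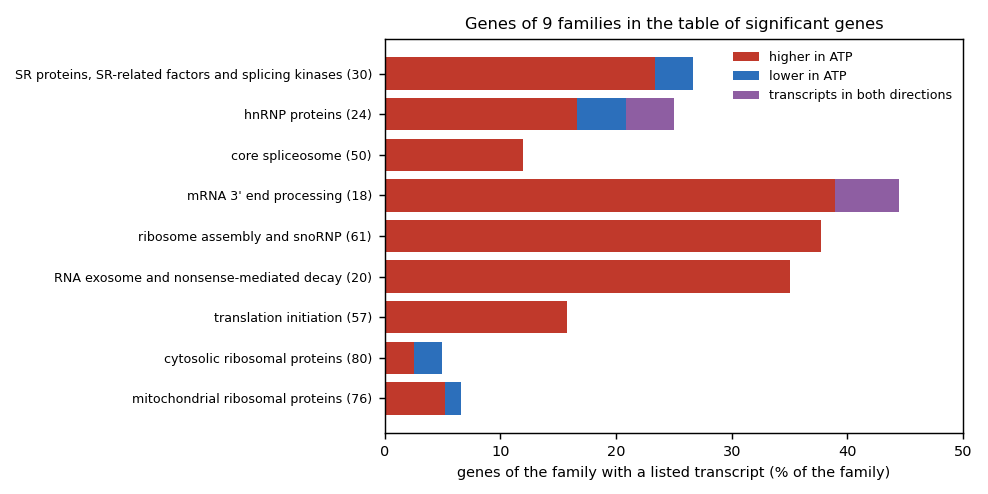
Share of the genes of 9 families that had a transcript in the table of significant genes, with genes higher after ATP in red, lower in blue and with transcripts in both directions in purple, and the number of genes in the family in parentheses. The bars are longest for 3′ end processing (44.4%), ribosome assembly (37.7%) and decay (35%) and shortest for cytosolic ribosomal proteins (5%).

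The members were also counted against whole families, with every transcript of the table counted, also of genes outside the members. The families were listed from textbook membership, but with earlier results of these data known. Their shares are therefore a description and no independent support. Of 21924 protein-coding genes of the annotation, which include genes that these cells do not express, 7.55% had a listed transcript. Of 61 ribosome assembly and snoRNP genes, 23 had a listed transcript, all higher, and 13 of the 23 are no members because of their names, such as Fbl, the methyltransferase of the box C/D snoRNP, which was 2.23-fold higher in ATP cultures than in Control cultures. Of 18 genes of mRNA 3′ end processing, 7 had only higher transcripts and 1, Nudt21, had a transcript in each direction. Of 20 exosome and nonsense-mediated decay genes, 7 were higher and none lower. Of 30 SR proteins, SR-related factors and splicing kinases, 7 were higher and 1 lower. The hnRNP family of 24 genes had 4 higher, 1 lower and 1 with transcripts in both directions, which was Syncrip.

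Larger shares of the core families had no row. Of 50 core spliceosome genes, 6 were higher and 44 were not listed, and of 57 initiation genes, 9 were higher and 48 were not listed. Of 80 cytosolic ribosomal protein genes, 2 were higher, 2 were lower and 76 were not listed. Of 76 mitochondrial ribosomal protein genes, 4 were higher, 1 was lower and 71 were not listed. A gene without a row may have been undetected, below the limits of the table or left out, so no direction can be given for it.

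The deposited GO table gives, for each term, how many annotated genes were in an unnamed list of the authors. That list held 2023 of 14784 annotated genes (13.7%), which is more than the 1829 genes behind the listed transcripts, so the GO counts cannot be assigned to the members. Whether the list held higher genes, lower genes or both is not stated. Of the genes annotated to RNA binding, 215 of 982 were in the list (21.9%, exact 95% interval 19.3% to 24.6%, counting error only), and of those annotated to RNA splicing 66 of 282 (23.4%, 18.6% to 28.8%). The 3 largest shares among the terms described were those of snoRNA binding, the preribosome and ribosome biogenesis. Of the genes of ribosome biogenesis, 31 of 90 were in the list (34.4%, 24.7% to 45.2%), of the preribosome 26 of 69 (37.7%, 26.3% to 50.2%), and of snoRNA binding 9 of 22 (40.9%, 20.7% to 63.6%). The related term rRNA processing had 47 of 170 (27.6%, 21.1% to 35%).

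The terms of the finished ribosome lay on the other side of the share of all annotated genes. Of the genes annotated as structural constituents of the ribosome, 11 of 167 were in the list (6.59%, exact 95% interval 3.33% to 11.5%), and of those annotated to the ribosome 16 of 189 (8.47%, 4.92% to 13.4%). Translational initiation had 15 of 52 (28.8%, 17.1% to 43.1%), while the broader term translation had 36 of 305 (11.8%, 8.41% to 16%). Of 20 terms described, 16 were above the share of all genes and 4 below. The interval lay wholly above that share in 12 terms and wholly below it in 2, which were the structural constituents and the ribosome. The terms overlap and are not independent of each other. They were picked by topic out of 11920 terms, so these counts are a description and no test.

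**Figure D4:**
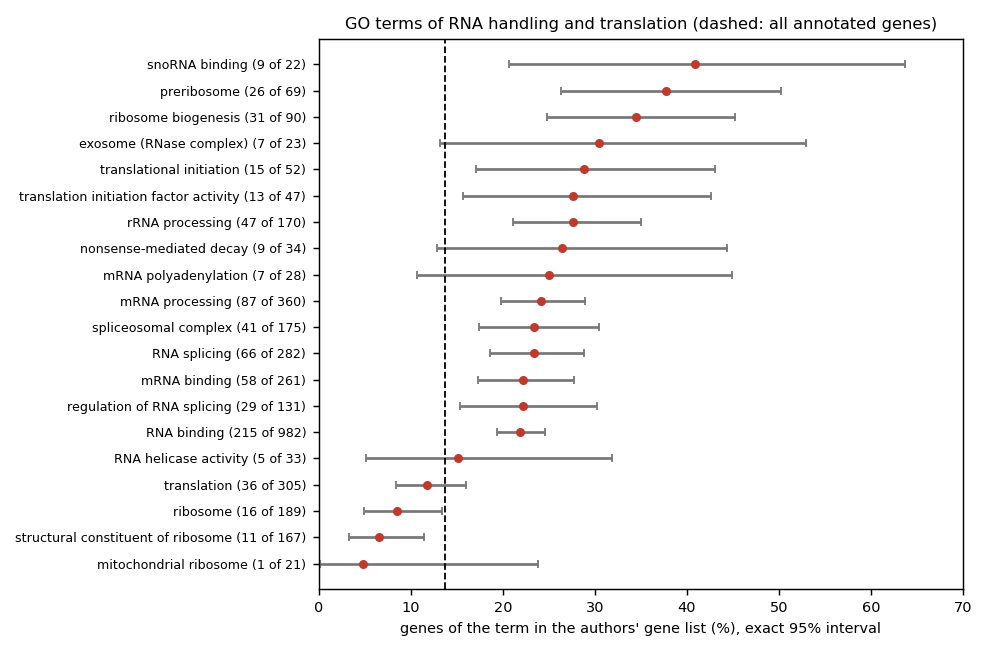
Share of the annotated genes of each of 20 GO terms that were in the authors' gene list, in percent with the exact 95% interval, and the number of genes in parentheses. The dashed line is the share of all annotated genes (13.7%), and the terms for snoRNA binding, preribosome and ribosome biogenesis lie farthest above it.

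Features of the genes that the rule did not use were taken from the GENCODE M21 annotation (GRCm38), in which all 60 member genes were found. A transcript annotated as a target of nonsense-mediated decay was present in 27 of 60 member genes (45%), 28.0% of 1595 other listed protein-coding genes and 20.8% of 21924 protein-coding genes. A transcript with a retained intron was annotated in 44 of 60 member genes (73.3%), against 58.4% of other listed genes and 41.6% of protein-coding genes. All 8 splicing regulator genes had an annotated transcript of each kind, and the number of annotated transcripts of these genes had a median of 11.5, compared with 6 for all members, 5 for other listed genes and 3 for protein-coding genes. More transcripts per gene give more chances for either kind. The transcript names of the deposited table follow an older numbering, so the listed transcripts could not be matched to these annotated kinds.

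**Figure D5:**
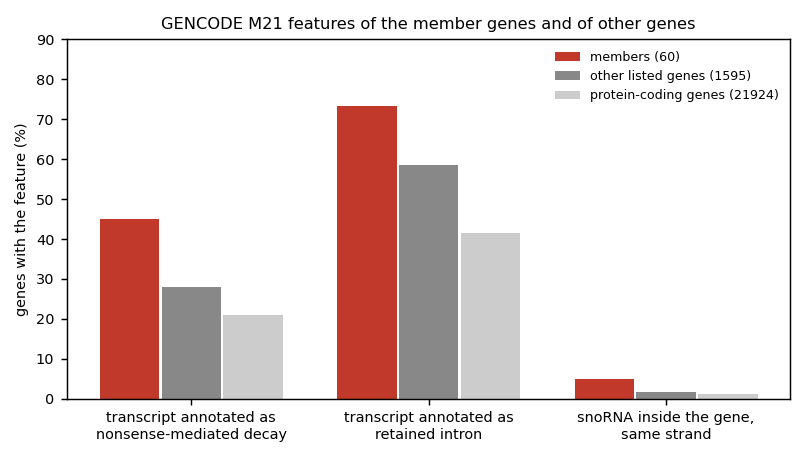
Percent of genes with an annotated nonsense-mediated decay transcript, a retained-intron transcript or a snoRNA inside the gene on the same strand, for the 60 member genes in red, the 1595 other listed protein-coding genes in dark grey and all 21924 protein-coding genes in light grey. The red bars reach 45%, 73.3% and 5%.

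Some snoRNAs are cut from the introns of host genes that themselves encode parts of the ribosome or of its assembly machinery. Of the members, 3 genes (5%) held annotated snoRNAs within the gene on the same strand, 12 snoRNAs in all, compared with 1.57% of other listed genes and 1.18% of protein-coding genes. Nop56 (chr2:130274430-130279313, plus strand) held 5, among them Snord57 and Snord110. Nop58 (chr1:59684971-59719044, plus strand) held 4, among them Snord11 and Snord70, and Rpl5 (chr5:107900502-107909005, plus strand) held 3, among them Snord21. All of the listed transcripts of these 3 host genes were higher after ATP, as were 57 of the 68 members. The snoRNAs are not polyadenylated and were not measured.

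The promoters of the members were searched for DNA motifs of transcription factors that respond to growth or calcium signals. RefSeq promoter sequences (GRCm38.p6, 250 bases before to 50 after the start) were found for 54 of the 60 genes, 66 promoters in all. The E-box CACGTG, the motif of MYC and related factors, was present on either strand in 8 of 66 member promoters (12.1%, exact 95% interval 5.38% to 22.5%), 8.74% of promoters of other listed genes and 8.03% of promoters of protein-coding genes. The AP-1 motif TGANTCA was present in 3 of 66 (4.55%, 0.947% to 12.7%), against 5.26% of promoters of other listed genes and 7.0% of those of protein-coding genes. The cAMP response element TGACGTCA was in 0 of 66, with an exact 95% upper limit of 5.44%, against 3.13% of promoters of other listed genes and 2.31% of those of protein-coding genes. The intervals of all 3 motifs cover the shares of the other promoters, so no difference was detectable with this number of promoters.

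All 10 member genes with a match upstream of the start are shown, each by the match nearest to the start, as 30 bases with the motif in capitals. They are read 5′ to 3′ on the strand of the gene. The E-box stands in 7 of them: Utp18 (chr11:93885769-93885798, minus strand), Eif1b (chr9:120492570-120492599, plus strand), Hnrnpd (chr5:99978953-99978982, minus strand), Eif4e (chr3:138527192-138527221, plus strand), Cstf1 (chr2:172370917-172370946, plus strand), Hnrnpf (chr6:117907713-117907742, plus strand) and Rbm15b (chr9:106887144-106887173, minus strand). The AP-1 motif stands in 3: Rps6ka4 (chr19:6840689-6840718, minus strand), Prpf4b (chr13:34875406-34875435, plus strand) and Eif1 (chr11:100319780-100319809, plus strand).
Utp18, E-box: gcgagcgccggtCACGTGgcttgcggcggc
Eif1b, E-box: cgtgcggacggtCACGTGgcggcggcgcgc
Hnrnpd, E-box: gcgctccggagcCACGTGaccgggacgcgc
Eif4e, E-box: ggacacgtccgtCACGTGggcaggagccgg
Cstf1, E-box: gcatgccctttgCACGTGcgcactgggtgt
Hnrnpf, E-box: cgagcgggcgctCACGTGgcccgaggcgcc
Rbm15b, E-box: gcccaccgcggtCACGTGtcgcggccggcg
Rps6ka4, AP-1: gttccagccgccTGACTCAggccgcacggg
Prpf4b, AP-1: cagcgctctaagTGAATCAggccttcttct
Eif1, AP-1: ctcgcccctcccTGAGTCAacagaacatcc

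The E-box begins between 20 bases (Utp18) and 86 bases (Rbm15b) before the start, and Eif4e and Rbm15b hold a further one at 228 and 154 bases. The AP-1 motif begins 79 bases before the start in Rps6ka4, 111 in Prpf4b and 157 in Eif1. The listed transcripts of the genes with an E-box were higher after ATP, as were 57 of the 68 members, at ratios between 1.5 (Hnrnpd-006) and 4.65 (Hnrnpf-001). Of the genes with the AP-1 motif, Eif1-001 and Prpf4b-201 were higher, at ratios of 1.92 and 1.5, and Rps6ka4 was lower, at 0.589. A match is a description of the letters and no measure of binding.

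The deposited tables list few markers that would identify the cells. Of 6 markers of enteric glia only Gfap had rows, and for Gfap-201 and Gfap-001 the deposited total matches 6 ATP and 5 Control libraries only if the means are exchanged, so these rows alone do not settle its direction, which is higher as listed. Of 5 fibroblast markers, 2 had rows, both lower after ATP. In the gliosis table, Dcn-202 had 22518 estimated counts in ATP cultures and 51612 in Control cultures, values taken as not scaled for depth. Col1a2-003 had 2.06 signal units in ATP cultures and 8.18 in Control cultures. The neuronal markers Ret and Uchl1, 2 of 5, and the macrophage marker Cd68, 1 of 5, were listed higher, and none of 5 smooth muscle markers had a row. In bulk RNA, fewer cells of a type and less RNA per cell cannot be told apart, and the part of such shifts in the values of the members was not tested.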

How the data were processed

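RNA of 6 ATP and 5 Control libraries of primary mouse enteric glia was sequenced as QuantSeq 3′ mRNA-Seq. The submitters' processing notes name Partek, and the aligner, genome build and annotation were not stated in any source read. The deposited tables hold, for each transcript, the authors' mean per group and a total over all libraries. In the table of significant genes, the deposited values were taken from their size as a signal that the authors had scaled for depth. In the gliosis table, the deposited values were taken as estimated counts that the authors had not scaled for depth. This does not hold for every row, since Gfap-201 has the same values in both tables. In 2070 of 2071 listed transcripts, and in all 68 members, the total equalled 6 ATP means plus 5 Control means to a relative 1e-06. The deposited p-values, adjusted p-values, ratios and fold changes, and the scores and p-values of the GO table, were not used. Of the GO table only the gene counts were used, with exact binomial 95% intervals.

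Ratios were computed as the ATP mean over the Control mean, with no pseudocount and no filter. Without values per library no test was made, and a ratio of 2 or more or of 1/2 or less served as a limit of size. Any member may be named, apart from 1 mitochondrial ribosomal protein transcript that is counted but not reported here. Values are given for the 3 largest ratios in each direction and the largest total of each role class, every lower member and every gene with several member transcripts, and for further members as space allowed. The members, role classes, gene lists, GO terms and motifs were chosen with earlier results of these data known. Gene features were taken from GENCODE M21, and promoters from RefSeq (GRCm38.p6). Motifs were searched on both strands. The code of the selection, the ratios and the motif search was checked on simple planted cases. These cases say nothing of false matches in real promoters. Protein sequences were not analysed here. Python 3.11.15, pandas 2.3.3 and scipy 1.17.1 were used.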

Additional observations from a re-analysis of the deposited data

How the results depend on the processing

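The factor of 1.16 is the median by which ratios in the gliosis table, taken as not scaled for depth, exceeded those of the same 49 transcripts elsewhere. Rows with identical values were left out, and the factor of single transcripts ranged from 0.977 to 1.27. The median factor shifts every log2 ratio by 0.21, and neither it nor a pseudocount of 1 can turn the direction of a transcript listed at 1.5-fold or more. With it, 36 members were at least 2-fold higher (against 32.5% of all listed transcripts) and 1 was at a ratio of 1/2 or less (against 24.6% of all listed transcripts), where 21 and 3 were as deposited. With a total of at least 100, 10 of 49 members were at least 2-fold higher (20.4%, against 16.2% of 1183 listed transcripts) and 5 were lower, and 89.8% were higher, against 53.8%. With 1 transcript per gene or with the listed transcripts of a gene summed, 51 of 60 genes were higher. Without Rps6ka4 and Eif2ak4, 56 of 65 transcripts were higher. The median log2 ratio of the members lay between 0.77 and 1.03 over these alternatives. The pseudocount lowered the log2 ratio by more than a 1.5-fold step in 3 transcripts, to 2.43 in Prpf38b-007, 1.38 in Hnrnpf-001 and 1.02 in Eif4e-002. As an odds ratio, RNA binding was at 1.86, against a ratio of shares of 1.60. In the bases upstream of the start alone, 10.6% of member promoters held the E-box, 4.55% AP-1 and 0% the cAMP response element. No paired analysis was possible because the tables hold no values per library, and for the same reason no library could be left out. The planned protein features were not run.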
